A study of Arabidopsis thaliana with 103 samples.

Results

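The data described here concern the 7 *Arabidopsis thaliana* genes of the SUMO pathway that were selected by gene identifier: *PIAL1* (AT1G08910), *PIAL2* (AT5G41580), *SIZ1* (AT5G60410), *HPY2* (AT3G15150), *SCE1* (AT3G57870), *SUM1* (AT4G26840) and *SUM2* (AT5G55160). All 7 were found among the 64790 genes and transposable elements (TEs) of the RNA-seq tables, and all 7 had reads in every library. PIAL1 and PIAL2 are components of the MOM1 complex, and the comparison asked whether transcripts of the SUMO machinery respond to loss of these ligases. Libraries came from whole seedlings of the Col-0 ecotype at 12 days, with 3 libraries in each of 14 groups. The set called the larger experiment here held Col-0, *pial1-2*, *pial2-1*, the *pial1/2* double mutant, *aipp3-1*, *aipp3-2*, *mom2-1*, *mom2-2*, *phd1-2*, *phd1-4*, *morc6-3* and *morchex*. The *nrpe1-11* experiment held *nrpe1-11* with its own Col-0, which the labels name as such. No label says that the libraries of the larger set were grown or sequenced together. The *phd1* alleles were made by CRISPR, *morchex* carries T-DNA insertions in 6 *MORC* genes, and the remaining alleles are T-DNA insertions. The double mutant was taken to combine *pial1-2* and *pial2-1*, the alleles of these genes in the methods of the study. ChIP-seq peak lists of tagged PIAL2, AIPP3, PHD1, PHD3 and MORC6 from flower buds were also used. Those of MORC6-Myc include lines in the *morc6*, Col-0 and *pial1/2* backgrounds. Nothing in the labels says that the 3 libraries of a group came from separately grown plants, so p-values measure the spread between these libraries.

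SUMO is a small protein that is attached to lysines of other proteins, where it changes their partners, location or stability. It passes from an activating enzyme to a conjugating enzyme, which joins it to the target with the help of a ligase, and proteases cut it off again. In Arabidopsis, *SUM1* and *SUM2* encode the main SUMO proteins, *SCE1* encodes the conjugating enzyme, *SIZ1* and *HPY2* encode ligases with an SP-RING domain, and *PIAL1* and *PIAL2* encode ligases known for extending SUMO chains. PIAL proteins also act with MOM1 in silencing of transcription.

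Where the insertions lie decides what a count of reads per gene can show of them, so the genotyping primers of the single mutants were placed on the TAIR10.1 assembly. The primers flank the T-DNA of each line, and the left (LP) and right (RP) primers are given here in full.
pial1-2 LP: aagtttgaggatgtgcaatgg
pial1-2 RP: aacacaagacgacatcatggc
pial2-1 LP: tggtagtgccacctgaaaaac
pial2-1 RP: tcaagtgcgatcacatcagag
*PIAL1* lies on the plus strand of chromosome 1 at 2856162 to 2861170, with 17 exons. Its LP primer matched the minus strand in 2 places of exon 17, at 2860065 to 2860085 and 2860134 to 2860154, and its RP primer matched exon 15 at 2859025 to 2859045. *PIAL2* lies on the minus strand of chromosome 5 at 16626185 to 16630820, with 16 exons. Here the LP primer matched exon 11 at 16628524 to 16628544, and the RP primer exon 15 at 16627464 to 16627484. The primers span 1130 bp of *PIAL1*, measured to the outer of the 2 LP matches, and 1081 bp of *PIAL2*. Of the 2909 bases of the *PIAL1* transcript, 34.5% lie upstream of this span, 30.6% within it and 34.9% downstream. For the 2822 bases of *PIAL2* the shares are 35%, 22.3% and 42.8%. In *PIAL1* the shares within and downstream depend on the choice of the outer LP match, and the share upstream does not. Both insertions leave 34.5% or more of the exonic sequence on their 5′ side, and a transcript that stopped at the T-DNA would still be counted for the gene.

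**Figure D1:**
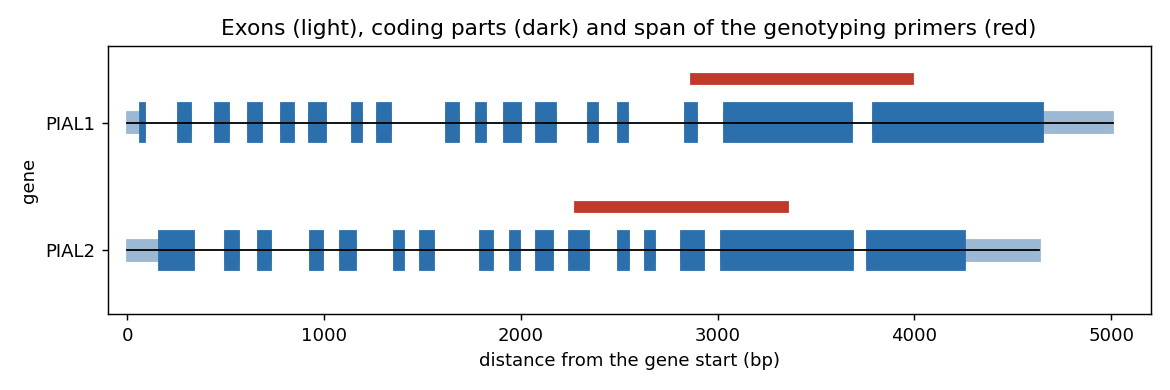
Exon structure of *PIAL1* and *PIAL2* against distance from the gene start in bp, with exons in light blue, coding parts in dark blue and the span between the genotyping primers in red. The span starts in exon 15 of 17 in *PIAL1* and exon 11 of 16 in *PIAL2*, read from the gene start.

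Depth, as the sum of the expected counts that RSEM gives, lay between 13164594 and 33464598 per library (median 19019362). Relative to a level of 1 TPM, the share of a transcript in 1000000 after correction for length, all 3 green shoot markers were present in every library, 5 or 6 of the 6 root markers were, and neither of the 2 seed storage genes was. The 4 floral markers (*AG*, *AP3*, *PI* and *SEP3*) differed between genotypes. Their summed level was 7.39 to 8.51 TPM in Col-0, 34.9 to 59.9 TPM in the *aipp3* alleles, 18.4 to 23.5 TPM in *pial1-2*, 8.67 to 23.1 TPM in *pial2-1* and 14.8 to 17.5 TPM in *pial1/2*. In the other mutants of the larger experiment it was 5.52 to 12.5 TPM. Over the 12 mutants, 12 of 18 pairs of mutant and targeted gene had every mutant library below every Col-0 library. The exceptions were *PHD1* in both *phd1* alleles, *MORC4* and *MORC5* in *morchex*, and *PIAL1* in both *pial1-2* and *pial1/2*. For *PIAL1* the count thus gives no check of the label, and its libraries are called by their labels.

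*PIAL2*, which encodes the ligase that is shown here to lose most of its transcript, fell in both genotypes in which it was targeted. Levels are given as CPM (counts per 1000000 counted) with TMM scaling over all 42 libraries. Whether fewer cells expressed a gene or each cell held less of its RNA cannot be told apart in whole seedlings. The Col-0 libraries had 11.7, 10.6 and 11.8 CPM of *PIAL2*, from 276, 220 and 299 reads. The libraries of *pial2-1* had 0.959, 1.28 and 1.31 CPM, from 14, 23 and 26 reads. In *pial1/2* the values were 1.99, 1.66 and 1.09 CPM, from 31, 27 and 21 reads. Mutant and Col-0 libraries did not overlap, and 10.4% of the Col-0 mean remained in *pial2-1* and 13.9% in *pial1/2*. The log2 fold change was −3.24 ± 0.148 (SE, n = 3 against 3) in *pial2-1* and −2.86 ± 0.184 in *pial1/2* (edgeR quasi-likelihood test, adjusted p = 1.21e-04 and 1.38e-04). *PIAL2* was the 1 feature of 19834 called lower in *pial1/2*, where 96 features were called higher.

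In the libraries labelled *pial1-2*, with the *PIAL2* gene intact, *PIAL2* stood at 9.89, 11.3 and 10.3 CPM, which overlapped Col-0. The log2 fold change was −0.11 with a 95% interval from −0.33 to 0.10 (edgeR, adjusted p = 0.697). Against *pial1-2*, the level of *PIAL2* in *pial1/2* was lower by a log2 fold change of −2.75 ± 0.190 (edgeR, adjusted p = 4.07e-05). Between *pial1/2* and *pial2-1* the difference was 0.39 with an interval from −0.30 to 1.08 on the log2 scale, which did not pass the test (edgeR, adjusted p = 0.898).

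*PIAL1*, the paralogous ligase, was not called in any comparison. In Col-0 it was at 18.8, 16.9 and 18.9 CPM. The libraries labelled *pial1-2* had 17.7, 20.0 and 18.7 CPM, and those of *pial2-1* had 19.8, 17.0 and 16.0 CPM. Both genotypes overlapped Col-0, so a lower read count was not seen in the mutant named for the gene. In *pial1/2* the values were 20.4, 19.1 and 23.7 CPM, each above the highest Col-0 library. The log2 fold change in *pial1/2* was 0.21 ± 0.101 with an interval from −0.02 to 0.44, and it did not pass the test (edgeR, adjusted p = 1.00 and unadjusted p = 0.067). With the replicate number as a block it did not pass either (edgeR, adjusted p = 0.403 and unadjusted p = 0.020). It was 0.05 in *pial1-2* (interval −0.14 to 0.23) and −0.05 in *pial2-1* (interval −0.29 to 0.18). Loss of *PIAL2* transcript was thus accompanied by no called change of *PIAL1*, and in *pial2-1* a rise above 1.13-fold lay outside the 95% interval. The tables give no reads by exon, so whether the *PIAL1* reads of *pial1-2* run past the insertion was not analysed here.

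**Figure D2:**
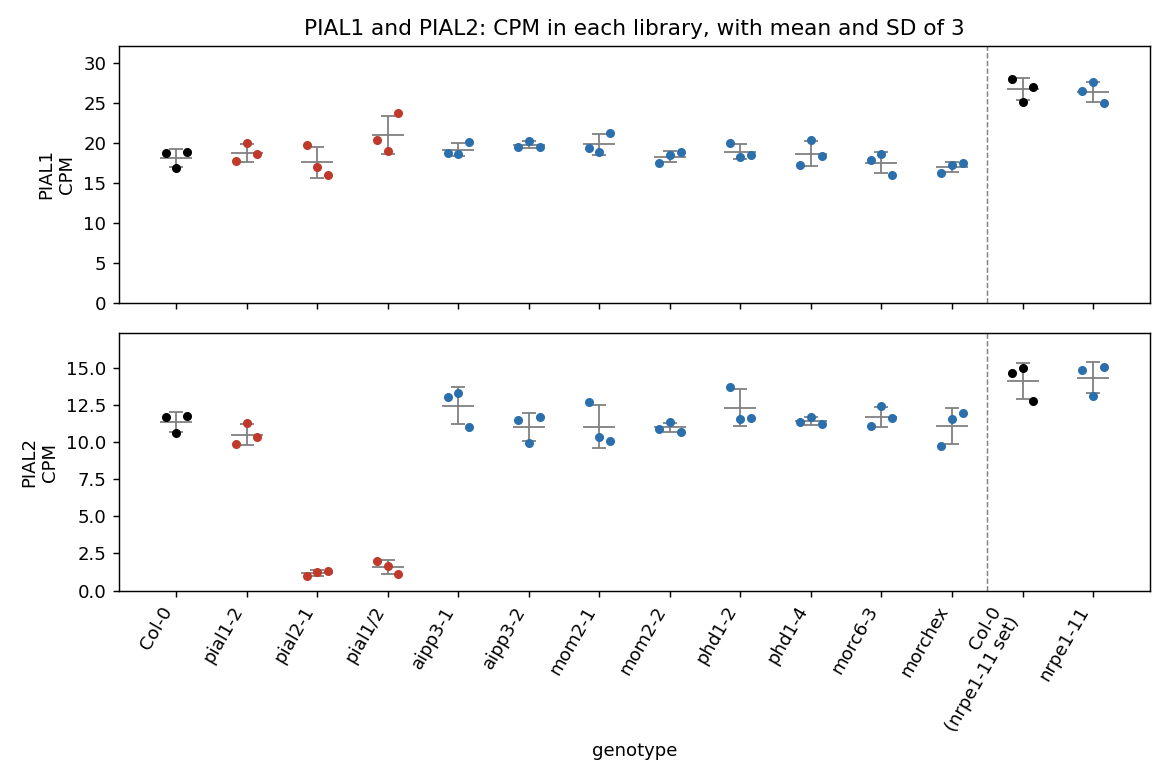
CPM of *PIAL1* (top) and *PIAL2* (bottom) in each of the 3 libraries of 14 genotypes (black, Col-0; red, *pial* mutants; blue, other mutants), with grey bars for mean and SD. *PIAL2* lies between 0.959 and 1.99 CPM in *pial2-1* and *pial1/2* and at 9.71 CPM or more elsewhere, while *PIAL1* stays between 16.0 and 23.7 CPM left of the dashed line.

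TPM, which corrects for transcript length, allows levels of different genes to be compared. In Col-0 of the larger experiment *PIAL1* was at 7.30 ± 0.506 TPM and *PIAL2* at 4.94 ± 0.322 TPM (SD, n = 3), a ratio of 1.48 ± 0.00742. The ratio of *PIAL1* to *PIAL2* in TPM averaged 14.2 ± 4.20 in *pial2-1* and 13.4 ± 5.83 in *pial1/2* (SD, n = 3). These ratios rest on 14 to 31 reads of *PIAL2* a library, and their ranges overlapped. *PIAL1* and *PIAL2* together amounted to 0.444 ± 0.00627 of the *SIZ1* level in Col-0 (ratio of TPM). This ratio was 0.276 in *pial2-1* and 0.328 in *pial1/2*, and 0.474 in the libraries labelled *pial1-2*.

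The rest of the machinery was next compared between Col-0 and the *pial* mutants. Of the 7 genes, 1 was called in *pial1/2* and in *pial2-1*, *PIAL2* in each case, and 0 were called in *pial1-2*. By the summed levels given before, the floral markers were above every Col-0 library in all 9 libraries of *pial1-2*, *pial2-1* and *pial1/2*, and their part in the values that follow was not tested. Over all features the share called was 0.489% in *pial1/2*, 0.172% in *pial2-1* and 0.228% in *pial1-2*. These shares moved with the setting, from 0.37% to 0.983% in *pial1/2*, from 0.0509% to 0.718% in *pial2-1* and from 0.0457% (without *pial1-2* replicate 2) to 1.43% (replicate block) in *pial1-2*, while the members called did not. In *pial1-2* no member had an unadjusted p under 0.05, against 11.3% of all features, and DESeq2 called 0. None of the 5 remaining genes passed the test in any of the 3 mutants, and their log2 fold changes in *pial1/2* lay between −0.04 and 0.05. The 95% intervals in *pial1/2* ran from −0.23 to 0.34 at their widest, which bounds a change of these 5 transcripts between 0.852-fold and 1.26-fold. In *pial2-1* the bounds were 0.837-fold and 1.25-fold, and in *pial1-2* 0.792-fold and 1.19-fold. These bounds are from the fit without the replicate block, and intervals with the block are not given. With the block, the log2 fold changes of the 5 genes lay between −0.04 (*SUM1*) and 0.05 (*HPY2*) in *pial1/2*. In *pial2-1* they lay between −0.06 (*SUM1*) and 0.05 (*SCE1*), and in *pial1-2* between −0.11 (*SIZ1*) and 0.11 (*SCE1*).

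*SIZ1*, the main SP-RING ligase, was at 83.9, 76.1 and 82.6 CPM in Col-0 and at 85.5, 78.0 and 81.7 CPM in *pial1/2*. The groups overlapped, with a log2 fold change of 0.02 ± 0.0729. *HPY2*, a ligase of meristem cell division, had 5.28, 5.54 and 5.36 CPM in Col-0 and 6.30, 5.10 and 5.40 CPM in *pial1/2*. Its change was 0.05 ± 0.125, the least certain of the 5 since it rested on 83 to 136 reads a library. The gene overlaps its neighbour AT3G15140 by 37 bp on the same strand, so reads in that stretch may belong to either gene.

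*SCE1*, the conjugating enzyme, was at 94.3, 93.3 and 97.1 CPM in Col-0 and at 99.0, 94.1 and 96.6 CPM in *pial1/2*, a log2 fold change of 0.02 ± 0.0646. The libraries labelled *pial1-2* had 104, 102 and 102 CPM of *SCE1*, all above Col-0, with a log2 fold change of 0.11 ± 0.0634 that did not pass the test (edgeR, adjusted p = 0.536). *SIZ1* in the same libraries, at 73.1, 75.8 and 76.1 CPM, was below every Col-0 library, with a change of −0.11 ± 0.0679 (edgeR, adjusted p = 0.574). In *pial1-2*, 2 of 7 genes did not overlap Col-0, against 16.7% of all features tested, so neither separation stood out from the transcriptome of these libraries. In *pial1/2* and *pial2-1* the number was also 2 of 7, against 9.4% and 13.9% of all features, with *PIAL2* among them in both.

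The SUMO genes themselves were as even. *SUM1* had 71.0, 75.6 and 71.7 CPM in Col-0 and 73.1, 66.0 and 73.7 CPM in *pial1/2*, a change of −0.04 ± 0.0728. *SUM2* had 78.2, 78.2 and 82.1 CPM in Col-0 and 82.2, 75.1 and 79.4 CPM in *pial1/2*, a change of −0.01 ± 0.0682. *SUM1* in *pial2-1*, at 70.9, 69.0 and 70.1 CPM, lay just below the lowest Col-0 library, with a change of −0.06 that did not pass the test (edgeR, adjusted p = 0.878).

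**Figure D3:**
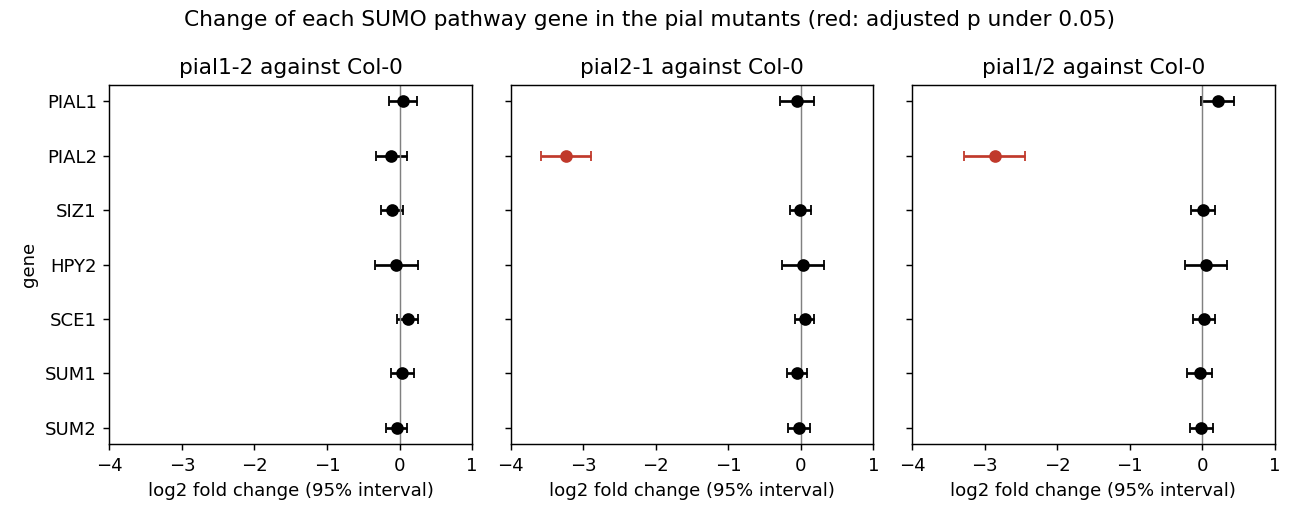
Log2 fold change against Col-0 (points) with the 95% interval from the edgeR fit (bars) for the 7 genes in *pial1-2*, *pial2-1* and *pial1/2*, 3 libraries a group; red marks an adjusted p under 0.05. *PIAL2* stands at −3.24 in *pial2-1* and −2.86 in *pial1/2*, and no other point lies beyond 0.21 on either side of 0.

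Whether the double mutant departed from the sum of the single mutants was tested by their interaction over 12 libraries. None of the 7 genes was called, against 0.159% of all features, with 0 at an unadjusted p under 0.05 and 0 called by DESeq2. The 2 estimates farthest from 0 were 0.48 ± 0.257 for *PIAL2* and 0.21 ± 0.145 for *PIAL1*, on the log2 scale. In *pial1/2* against *pial1-2*, 1 of 7 genes was called, again *PIAL2*, against 0.495% of all features. Against *pial2-1*, 0 of 7 were called, with 0 at an unadjusted p under 0.05, 0 by DESeq2 and 0.349% of all features called.

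A list of 18 further pathway genes comprised 4 loci of the activating enzyme, 6 SUMO paralogs and 8 SUMO proteases. In each *pial* mutant 14 of the 18 passed the filter on low counts and 0 were called against Col-0, with 0 at an unadjusted p under 0.05. In *pial1/2* the median log2 fold change of the 14 was −0.03, beside a median of 8.81e-04 over all features, and 4 of the 14 were above 0. The changes ran from −0.41 to 1.23. The highest was that of *SAE1B* at AT5G50580, with a 95% interval from −1.66 to 4.12, so a change of this locus is hardly bounded. The lowest adjusted p of the list was 0.518 in *pial1-2*, 0.763 in *pial2-1* and 1.00 in *pial1/2* (edgeR). The copies of the activating enzyme subunit *SAE1B* at AT5G50580 and AT5G50680 are near-identical, so the split of reads between them is uncertain.

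The 7 genes were then followed through the 8 mutants of the larger experiment with intact *PIAL* genes. *AIPP3*, *MOM2* and *PHD1* encode partners of MOM1, and the MORC proteins are ATPases of gene silencing. None of the 7 was called in any of these mutants against Col-0. The share of all features called was 10.4% in *aipp3-1*, 18.3% in *aipp3-2*, 0.0355% in *mom2-1*, 15.7% in *mom2-2*, 16.8% in *phd1-2*, 19.3% in *phd1-4*, 14.1% in *morc6-3* and 16.9% in *morchex*. At an unadjusted p under 0.05 there was 1 member in each of *aipp3-1*, *mom2-1* and *morc6-3* and 2 in *morchex*, where 27.3%, 2.64%, 27.9% and 31.8% of all features had one. There were 0 members in the other 4 mutants, against 29.6% to 33.5% of all features. DESeq2 called *SCE1* in *aipp3-1* and 0 members in the other 7 mutants. Each comparison used the same 3 Col-0 libraries, so the mutants are not independent of each other. By share of features called, *mom2-1* stood with the *pial* mutants (0.172% to 0.489%) and apart from the rest (10.4% to 19.3%). In *mom2-1* and the *pial* mutants all 3 libraries correlated best with the Col-0 library of their own number. In the rest 0 to 2 did. Whether the rest were handled apart from Col-0 is not in the labels and was not tested.

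*SCE1* in *aipp3-1*, at 114, 107 and 114 CPM, was above every Col-0 library, with a log2 fold change of 0.24 ± 0.0762 (edgeR, adjusted p = 0.080; DESeq2, adjusted p = 0.049). In *aipp3-2* it was at 98.9, 109 and 106 CPM, again above Col-0, with a change of 0.14 ± 0.0705 (edgeR, adjusted p = 0.197). Col-0 had the lowest mean of *SCE1* among the 12 genotypes, 94.9 ± 1.97 CPM (SD, n = 3). *HPY2* was at 6.44, 5.72 and 6.36 CPM in *aipp3-1* and 5.86, 6.65 and 6.27 CPM in *aipp3-2*, the 2 highest group means of the gene in the larger experiment, with changes of 0.20 ± 0.118 and 0.22 ± 0.114 that did not pass the test (edgeR, adjusted p = 0.307 and 0.223). Both alleles were those with the highest floral markers, summed to 34.9 to 59.9 TPM over their 6 libraries, and the part of floral tissue in these values was not tested. In *aipp3-1*, 2 of 7 genes did not overlap Col-0, against 33.6% of all features, and in *aipp3-2*, 3 of 7 against 39.7%.

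*SIZ1* was at 69.3, 74.8 and 66.9 CPM in *morc6-3* and at 68.4, 71.4 and 70.0 CPM in *morchex*, below every Col-0 library in both. The changes were −0.20 ± 0.0824 and −0.21 ± 0.0707 (edgeR, adjusted p = 0.140 and 0.075). Fitted with all 42 libraries together, both passed the threshold (edgeR, adjusted p = 0.031 and 0.019). *SUM2* in *morchex*, at 85.7, 94.3 and 88.9 CPM, was above every Col-0 library, with a change of 0.17 ± 0.0707 (edgeR, adjusted p = 0.128, and 0.046 with all 42 libraries). *SUM1* in *morchex*, at 81.1, 81.4 and 75.9 CPM, was also above Col-0, with a change of 0.13 ± 0.0696 (edgeR, adjusted p = 0.244). In *morchex*, 3 of 7 genes did not overlap Col-0, against 38.3% of all features, and in *morc6-3*, 1 of 7 against 33.8%.

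*HPY2* was lowest in *mom2-1*, at 4.06, 4.12 and 4.93 CPM from 79 to 96 reads. Its change of −0.30 ± 0.131 was the largest in size of the 60 values of the 5 genes outside the *PIAL* pair over 12 mutants, and it did not pass the test (edgeR, unadjusted p = 0.047 and adjusted p = 1.00). In *mom2-2*, the second allele, *HPY2* was at 4.49, 5.37 and 6.15 CPM and overlapped Col-0 (log2 fold change −0.01 ± 0.136). *SIZ1* was highest in *mom2-1*, at 94.4, 81.2 and 87.8 CPM, and in *mom2-2* it was at 74.2, 71.6 and 73.3 CPM, below every Col-0 library. The 2 *mom2* alleles therefore lay on opposite sides of Col-0 for *SIZ1*, with changes of 0.12 ± 0.0799 and −0.14 ± 0.0676. Neither change passed the test, and the difference between the alleles was not tested directly. The alleles also differed in the share of all features called, 0.0355% in *mom2-1* and 15.7% in *mom2-2*. So the split of *SIZ1* cannot be told apart from that difference between the libraries. In each of *mom2-1* and *mom2-2*, 2 of 7 genes did not overlap Col-0, against 7.59% and 35.1% of all features. In *phd1-2* and *phd1-4* the numbers were 0 and 1 of 7, against 36.2% and 38.4%.

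In a test of any difference among Col-0 and these 8 mutants, over 27 libraries, 3 of 7 genes were called, against 29.2% of all features. They were *SIZ1*, *SUM1* and *HPY2* (edgeR, adjusted p = 0.016, 0.025 and 0.032). *SCE1* and *SUM2* did not pass (edgeR, adjusted p = 0.136 and 0.138). For *SIZ1* the group means ran from 69.9 CPM in *morchex* to 87.8 CPM in *mom2-1*, a ratio of 1.26. For *SUM1* they ran from 68.6 CPM in *mom2-2* to 79.5 CPM in *morchex* (ratio 1.16), and for *HPY2* from 4.37 CPM in *mom2-1* to 6.26 CPM in *aipp3-2* (ratio 1.43). The calls rested on few libraries: without *mom2-1* replicate 1 none of the 3 was called, with adjusted p (edgeR) of 0.069 for *SIZ1*, 0.051 for *SUM1* and 0.096 for *HPY2*. *SIZ1* was also lost without *mom2-1* replicate 3 (edgeR, adjusted p = 0.078) and *SUM1* without *mom2-2* replicate 3 (edgeR, adjusted p = 0.060). *HPY2* was lost without any of *aipp3-1* replicate 1, *aipp3-2* replicates 2 and 3, or *mom2-1* replicate 2 (edgeR, adjusted p of 0.053, 0.055, 0.053 and 0.087). Of the further pathway list, 1 of 14 genes tested was called. Any difference in handling between the libraries, which the labels do not name, would also enter this test.

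**Figure D4:**
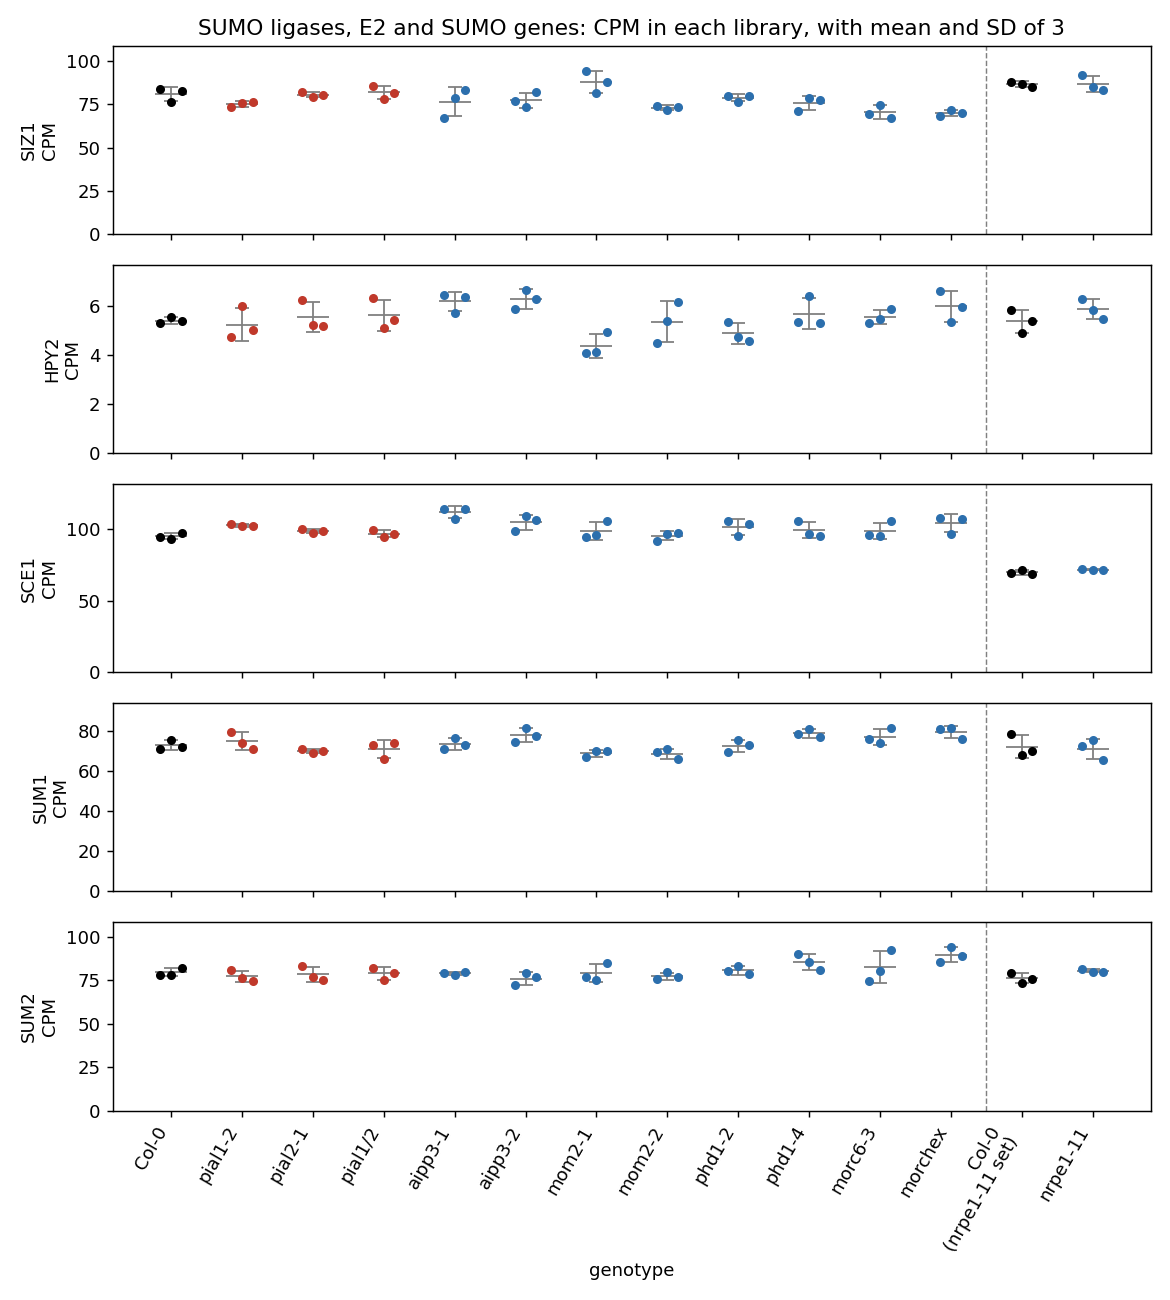
CPM of *SIZ1*, *HPY2*, *SCE1*, *SUM1* and *SUM2* (rows, each axis from 0) in each of the 3 libraries of 14 genotypes, with grey bars for mean and SD; black is Col-0, red the *pial* mutants and blue the other mutants, and the dashed line separates the *nrpe1-11* experiment. Group means of the larger experiment differ by at most a ratio of 1.43, in *HPY2*, and *SCE1* is lower right of the dashed line.

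In *nrpe1-11*, which lacks the largest subunit of RNA polymerase V, 0 of 7 genes were called against its own Col-0, with 0 at an unadjusted p under 0.05, 0 by DESeq2 and 0.523% of all features called. *SUM2* was the 1 gene of 7 without overlap, at 79.9 to 81.7 CPM in *nrpe1-11* and 73.6 to 79.4 CPM in its Col-0, against 6.55% of all features. The 2 Col-0 sets differed in level, and they are set side by side without a test because genotype does not separate them. *PIAL1* was at 26.8 ± 1.41 CPM in the Col-0 of the *nrpe1-11* experiment and 18.2 ± 1.12 CPM in that of the larger one (SD, n = 3). *SCE1* was at 69.7 ± 1.74 and 94.9 ± 1.97 CPM. The ranges of both genes did not overlap between the sets, and the steps were larger than the difference between any 2 group means of these genes within an experiment. Summed floral markers were 2.39 to 2.75 TPM in the Col-0 of the *nrpe1-11* experiment.

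Ranked by TPM in Col-0 of the larger experiment, *SUM2* was highest at 177 ± 6.79 TPM (SD, n = 3), followed by *SUM1* at 143 ± 3.64 TPM and *SCE1* at 138 ± 4.13 TPM. The ligases were lower, with *SIZ1* at 27.6 ± 1.67 TPM, *PIAL1* at 7.30 ± 0.506, *HPY2* at 6.70 ± 0.115 and *PIAL2* at 4.94 ± 0.322 TPM. The Col-0 libraries of *SUM1* and *SCE1* overlapped, as did those of *PIAL1* and *HPY2*, and the other neighbours in this order did not. The ratio of *SUM2* to *SUM1* was 1.24 ± 0.0639 in Col-0 and 1.26 ± 0.0384 in *pial1/2*. When the 12 genotypes of the larger experiment were ordered by mean CPM, the libraries of neighbouring genotypes overlapped in all 11 steps for every gene except *PIAL2*, where 1 step of 11 separated *pial1-2* from *pial1/2*.

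For each gene the 2 features with the most similar profile were found, by Pearson's r of log2(CPM + 1) among 15691 to 15701 features with a mean CPM of at least 5. The libraries share genotypes and growth, and the feature ranked 100th had an r between 0.475 and 0.730, so many features lay close to those named. The formin homolog gene AT5G07770 was among the 2 nearest features of *PIAL1* (r = 0.691 over 30 libraries). *PIAL2* was closest to *QWRF8*, an augmin subunit gene (r = 0.679), and the pseudogene *MUG8* (r = 0.669), also over 30. Over 36 libraries *SIZ1* was closest to *RPP8*, a disease resistance gene (r = 0.846), and *SD1-13*, a receptor-like kinase gene (r = 0.832). *SUM2* was closest to the ribosomal protein gene *RPS15A* (r = 0.798) and the cap-binding protein gene *CBP20* (r = 0.794). The nearest features of *HPY2* were *CCT2* and *DMC1* (r = 0.605 and 0.591), those of *SCE1* were *ARFA1D* and AT5G48480 (r = 0.700 and 0.698), and those of *SUM1* were AT5G52370 and AT2G36130 (r = 0.716 and 0.713). No member was among the 2 nearest features of another.

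The loci were also looked up in the 18 ChIP-seq peak lists, from floral tissue of tagged plants. Labels of the lists called MORC6-Myc replicates here name no background, and the paper states *morc6-3* for this ChIP-seq. For PIAL2-Myc the paper names *pial2-1*. Each list holds intervals with a fold enrichment over control and a −log10 q value but no read depth, and a gene was counted with a peak in its body or the 1000 bp upstream. At *PIAL1*, MORC6-Myc peaks lay upstream of the gene start in both MORC6-Myc replicates (fold enrichment 2.73 and 3.00), in which 25.7% and 11% of 27444 coding genes had a peak. Peaks at the same place were listed in 3 of 3 MORC6-Myc lines in the *morc6* background (2.08, 2.48 and 6.12) and in 1 of 2 lines in the Col-0 background (3.47). None was listed in the 3 lines in the *pial1/2* background, where 2.83% to 3.41% of genes had a peak, against 18.7% to 32.3% in the lines of the other backgrounds. Those 3 lists were shorter as a whole, with 1151 to 1348 nuclear peaks against 8006 to 13430, so the absence at *PIAL1* is not particular to this gene. PIAL2-Myc had a peak there in replicate 1 (1.87) and none in replicate 2, lists in which 21.3% and 5.41% of genes had one. The FLAG list of PHD3, in which 20.2% of genes had a peak, held 1 across the gene start, from −117 to 138 bp (1.63).

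**Figure D5:**
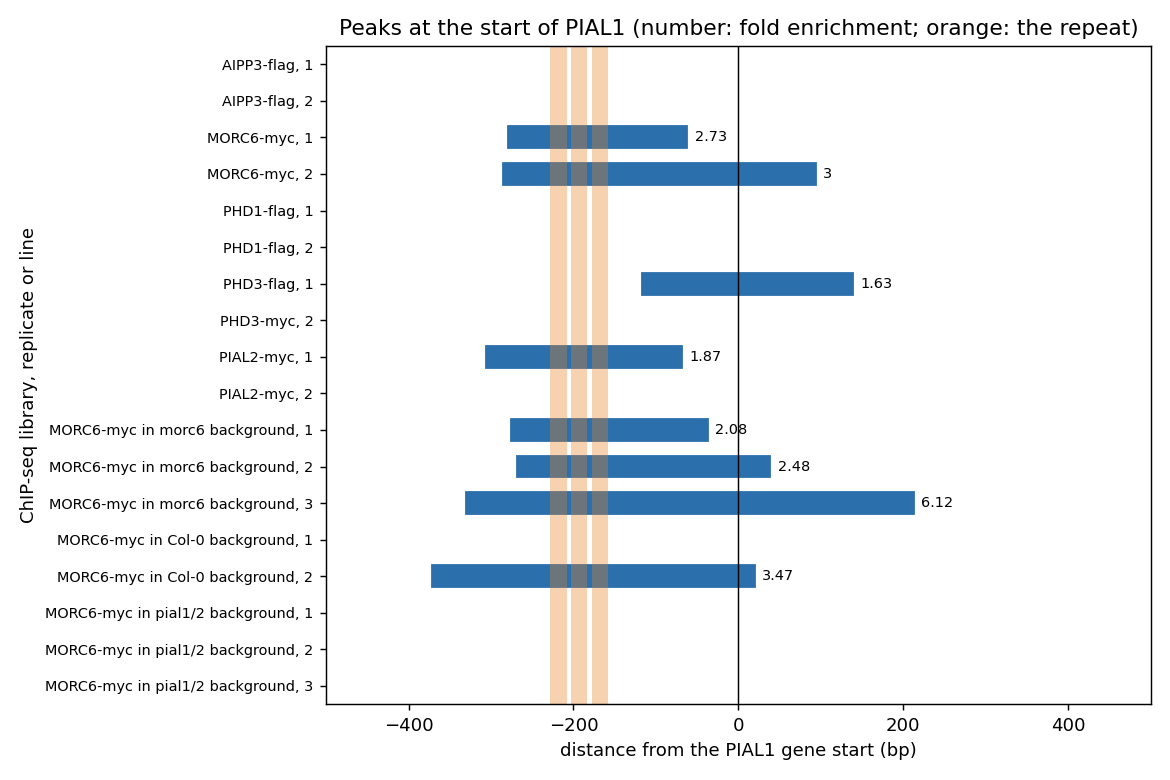
ChIP-seq peaks (blue bars) against distance from the *PIAL1* gene start in bp, by library, with the authors' fold enrichment beside each peak; orange marks the 3 copies of the repeat. Peaks cover the repeat in both MORC6-Myc replicates, all 3 *morc6*-background lines, Col-0-background line 2 and PIAL2-Myc replicate 1, and in 0 of 3 *pial1/2*-background lines.

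The stretch shared by these 6 MORC6-Myc peaks and the PIAL2-Myc peak, 269 to 69 bp before the *PIAL1* gene start, is shown because it holds a repeat. It lies on the plus strand of chr1:2855893-2856093 (TAIR10.1), and capitals mark the longest word present 3 times.
PIAL1 upstream: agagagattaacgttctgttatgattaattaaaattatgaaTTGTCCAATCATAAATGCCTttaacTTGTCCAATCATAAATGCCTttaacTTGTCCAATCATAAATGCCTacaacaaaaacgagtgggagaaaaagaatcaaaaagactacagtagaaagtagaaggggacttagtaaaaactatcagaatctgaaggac
The word has 20 bases and starts 228, 203 and 178 bp before the gene start. A word of that length in 3 copies was present in 0.0729% of the 27443 windows at the same place before coding genes, 20 windows in number. Each copy holds the letters CCAAT, which on either strand were found in 38.3% of windows. No match on either strand was found to the G-box letters CACGTG (present in 4.56% of windows), the site II letters TGGGCC (9.07%), the telo box letters AAACCCTA (3%) or the TATA box letters TATAAA (37.3%).

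*SCE1* also had both PIAL2-Myc and MORC6-Myc peaks that reached upstream. PIAL2-Myc replicate 1 (fold enrichment 2.03), *morc6*-background lines 1 and 2 (2.21 and 2.48) and Col-0-background line 2 (2.68) covered its start. No *SCE1* peak was listed in PIAL2-Myc replicate 2 or in either MORC6-Myc replicate. None was listed in *morc6*-background line 3, Col-0-background line 1 or any *pial1/2*-background line. The stretch that the listed peaks share before the gene start, on the minus strand of chr3:21430399-21430534, is printed for comparison.
SCE1 upstream: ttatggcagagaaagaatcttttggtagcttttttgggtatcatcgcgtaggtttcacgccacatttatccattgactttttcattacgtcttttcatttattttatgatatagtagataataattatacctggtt
It held no word of 12 or more bases in 3 copies and none of the 5 motifs. AIPP3-FLAG, the product of the gene mutated in *aipp3-1* and *aipp3-2*, had peaks within *SCE1* in both replicates (2.38 and 2.11 at the peak nearest the start) and within *SUM1* in both (3.19 and 2.81), in lists where 18.5% and 10% of genes had a peak. These peaks are not particular to AIPP3. PHD3 had overlapping peaks within *SCE1* in its FLAG and Myc lists (4.28 and 2.09) and within *SUM1* in its FLAG list (3.25). In those lists 20.2% and 3.34% of genes had a peak. Within *SUM2*, peaks were listed in AIPP3-FLAG replicate 1 (2.16) and in the FLAG list of PHD3 (2.71). At the start of *SIZ1*, 1 peak was listed, in *morc6*-background line 2 (2.15), where 32.3% of genes had one. *PIAL2* itself was covered by peaks of 5696 and 5556 bp in the 2 PIAL2-Myc lists (5.19 and 13.8). Those plants carry the tagged *PIAL2* sequence as a transgene, so the locus and the transgene cannot be told apart. Upstream of *PIAL2*, from −562 to −342 bp relative to the gene start, 1 MORC6-Myc peak was listed, in *morc6*-background line 2 (1.84). Seedling RNA and floral ChIP-seq differ in tissue, and no relation between peaks and levels was tested.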

How the data were processed

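RNA-seq libraries (TruSeq Stranded mRNA) were aligned by the authors with bowtie2 and quantified with RSEM, which gave the deposited expected counts and TPM per gene and TE on TAIR10. RSEM ran with default settings, which do not use strand, so reads of antisense transcripts were not separated. ChIP-seq peaks were called by the authors with MACS2 2.1.2, and the deposited lists give a fold ratio over control and a −log10 q value. Of the expected counts of the 7 genes, 287 of 294 were whole within 0.005.

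Expected counts were rounded and tested in R 4.3.3 with edgeR 4.0.16 (TMM, CPM of at least 1 in 2 libraries, robust quasi-likelihood F test, Benjamini-Hochberg over all features, adjusted p under 0.05, 95% intervals), with 3 libraries a group. Alternatives were RLE scaling, DESeq2 1.42.0, no filter, each replicate left out, a replicate block, all 42 libraries in one fit and a minimum of 2-fold. Python 3.11.15 was used for levels and loci. Procedures were tested on simulated counts whose changes were larger than those of the members other than *PIAL2*. The power to find smaller changes was therefore not tested. Genes named outside the 7 were the 2 with the highest r for each, of which 1 is not reported here; the pathway list was given by counts. Members and lists were chosen with earlier results of these data known. Same-numbered replicates correlated above 0.1 in every pair in *pial1/2*, *pial2-1* and *mom2-1* against Col-0 (r of 0.119 to 0.499), so there the numbers were taken as pairs. In *pial1-2* all 3 libraries also correlated best with the Col-0 library of their own number. With r of 0.0493 to 0.271 that mutant fell short of the rule. Only the fit with the replicate block takes up this pairing. Values, SE, intervals and p-values are from the fit without the block unless the block is named, so they leave the pairing out. Bisulfite files were not used here.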

Additional observations from a re-analysis of the deposited data

How the results depend on the processing

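*PIAL2* kept its call in *pial1/2*, *pial2-1* and *pial1/2* against *pial1-2* under each of 11 alternatives, with a log2 fold change between −3.06 and −2.63 in *pial1/2*, −3.32 and −3.12 in *pial2-1*, and −2.95 and −2.53 against *pial1-2*. Of 16 counts of members called, 211 of 217 alternative values equalled the reported count or lay within 1.5 times of it. DESeq2 raised the count in *aipp3-1* from 0 to 1, *SCE1*. All 42 libraries in one fit raised it to 1 in *aipp3-1* (*SCE1*), 1 in *morc6-3* (*SIZ1*) and 2 in *morchex* (*SIZ1* and *SUM2*); this fit shares its estimate of spread over 14 groups, and the cause was not tested. In the test over Col-0 and 8 mutants the count fell from 3 to 1 without the filter and leaving out 1 replicate at a time gave between 0 and 4. Leaving out 1 replicate changed the count in no pairwise comparison. Of 1407 alternative values for single genes, 11 lost a call, 6 gained one and 71 uncalled values changed sign.

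With the replicate block, the members called were 1 in *pial1/2*, 1 in *pial2-1* and 0 in *mom2-1*, and the block changed no member's call in any comparison. The share of all features called fell by over 1.5 times without Col-0 replicate 2 in *pial1-2*, *pial2-1* and each of the 8 mutants with intact *PIAL* genes, most in *aipp3-1*, from 10.4% to 1.27%. Without Col-0 replicate 3 it fell by over 1.5 times in the same 8 mutants except *mom2-1*. The values were then 2.1% in *aipp3-1*, 8.64% in *aipp3-2*, 8.73% in *mom2-2* and 7.11% in *morc6-3*. They were 7.46% in *morchex*, 8.34% in *phd1-2* and 10% in *phd1-4*. The share also fell in *pial1-2* without *pial1-2* replicate 1 (0.0965%) or 2 (0.0457%), and in *pial2-1* without Col-0 replicate 1 (0.0661%) or 3 (0.0559%). Mutant libraries mattered elsewhere too, with falls of over 1.5 times. Without replicate 1 of the mutant it was 11.8% in *aipp3-2*, 8.8% in *mom2-2* and 12.8% in *phd1-4*. Without replicate 2 it was 3.23% in *aipp3-1* and 9.56% in *phd1-2*. In *nrpe1-11* it was 0.238% without replicate 3 of that mutant. Of 60 intervals of the 5 genes outside the *PIAL* pair, 5 left out 0, at changes between 1.13-fold (*SUM2*) and 1.23-fold (*HPY2*, lower), and *HPY2*, with 77 to 194 reads a library, had the widest intervals.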
